A study of Mus musculus with 23 samples.

Results

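The 10 genes described here encode receptors through which liver cells sense drugs, fatty acids, sterols, bile acids, estrogen and thyroid hormone: Nr1i2, Nr1i3, Ahr, Rxra, Ppara, Nr1h3, Nr1h4, Nr0b2, Esr1 and Thrb. They were found by gene symbol in the count table, all 10 among its 27179 genes, of which 20380 had a read in at least 1 mouse. All 10 had a mean of at least 1 CPM (counts scaled to library size with TMM factors, the unit of level used throughout), so no member was lost to low counts. Bulk RNA from liver tissue free of visible tumors was sequenced in 15 female mice: 6 Ctrl, 6 ABpIF/+ and 3 ABpIF/F.

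All 3 groups carried Alb-Cre, which is active in hepatocytes and in cells that arise from albumin-expressing progenitors, and Trp53 flx/flx. The Ctrl mice were ICMT flx/+ without the Braf allele. The ABpIF/+ mice added the BrafV600E knock-in (BrafCA/+ in the design text, although their genotype labels read BRAF +/+) to the same ICMT flx/+ background, and the ABpIF/F mice carried it with ICMT flx/flx. Icmt encodes the enzyme that methylates prenylated proteins such as RAS. The ages at sampling are not in the labels, the 3 ABpIF/F mice were necropsied at different ages, and only 3 mice of this genotype were obtained. The 9 ABpIF mice share a strain label with a single Ctrl mouse, BG3, whereas the other 5 Ctrl mice carry another strain label, so strain label and genotype can be told apart only against BG3, a single mouse that is assumed in such a fit to vary like the other groups.

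Most of these receptors are ligand-activated transcription factors of the nuclear receptor family that bind DNA as heterodimers with the retinoid X receptor, RXR, of which Rxra is the main liver form. Nr1i2 (PXR) and Nr1i3 (CAR) switch on drug-metabolizing cytochromes P450 and transporters, Ppara (PPARα) drives fatty acid oxidation during fasting, Nr1h3 (LXRα) senses oxysterols and Nr1h4 (FXR) senses bile acids. Nr0b2 (SHP) has no DNA-binding domain and represses bile acid synthesis as a target and partner of FXR. Esr1 and Thrb encode the estrogen receptor α and the thyroid hormone receptor β. Ahr, the dioxin receptor, belongs to another protein family (bHLH-PAS) and pairs with ARNT.

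Nr1i3, Ppara and Nr0b2 were each called in a comparison below, and their promoter sequences are shown for reference, from 250 bases before to 50 after the RefSeq start site on GRCm38.p6. Nr1i3 lies at chr1:171213934-171218845 (+ strand), Nr0b2 at chr4:133553376-133556686 (+) and Ppara at chr15:85734910-85806851 (+). The others lie at chr16:38248349-38294849 (−, Nr1i2), chr12:35497979-35534989 (−, Ahr), chr2:27676445-27763319 (+, Rxra), chr2:91184061-91202829 (−, Nr1h3), chr10:89454234-89533645 (−, Nr1h4), chr10:4611989-5005633 (+, Esr1) and chr14:17659225-18040097 (+, Thrb). These positions are from RefSeq and the strands from GENCODE M21 on GRCm38. Capitals mark the E-box CACGTG, the element bound by the clock factors CLOCK and BMAL1 and by other bHLH proteins, found at position −244 from the start site of Nr1i3 and −195 from that of Nr0b2.
Nr1i3 promoter, chr1:171213720-171214019: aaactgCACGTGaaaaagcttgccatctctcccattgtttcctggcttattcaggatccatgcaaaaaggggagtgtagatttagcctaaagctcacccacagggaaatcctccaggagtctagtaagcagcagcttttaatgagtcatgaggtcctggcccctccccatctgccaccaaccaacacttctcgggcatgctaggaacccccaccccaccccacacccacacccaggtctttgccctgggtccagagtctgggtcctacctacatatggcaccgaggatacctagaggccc
Nr0b2 promoter, chr4:133553126-133553425: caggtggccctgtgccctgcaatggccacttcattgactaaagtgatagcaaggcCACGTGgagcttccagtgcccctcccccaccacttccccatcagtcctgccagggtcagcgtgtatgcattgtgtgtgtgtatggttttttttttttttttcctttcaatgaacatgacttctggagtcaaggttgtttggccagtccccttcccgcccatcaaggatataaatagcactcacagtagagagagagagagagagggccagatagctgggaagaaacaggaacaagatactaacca
Ppara promoter, chr15:85735526-85735825: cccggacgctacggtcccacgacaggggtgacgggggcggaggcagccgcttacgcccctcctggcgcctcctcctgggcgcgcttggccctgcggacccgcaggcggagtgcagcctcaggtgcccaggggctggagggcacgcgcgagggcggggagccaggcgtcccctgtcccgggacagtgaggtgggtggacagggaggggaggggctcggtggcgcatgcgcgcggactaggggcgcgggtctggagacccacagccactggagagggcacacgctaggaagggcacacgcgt
Across all 32851 RefSeq promoter windows of this length, 7.150% held CACGTG on either strand, which is a palindrome. The receptor core motif AGGTCA was in 16.255% of all windows and in none of these 3, and the clock output motifs TTATGTAA (0.938%) and TTACGTAA (0.119%), the extended motif TCAAGGTCA (0.423%, which contains AGGTCA) and the DR1, DR4 and IR1 repeats were in none of the 13 windows of the 9 members with a RefSeq promoter. AGGTCA was present in windows of Nr1h4, Rxra and Thrb, and CACGTG also in a window of Thrb, at −193, a receptor that passed no threshold. A match describes letters in the window and was not tested as a binding site.

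Each mouse had 24742910 to 32262649 counts on genes. The deleted gene Icmt was at 27.8 to 34.7 CPM in Ctrl, 27.8 to 37.4 in ABpIF/+ and 15.2 to 16.6 in ABpIF/F mice, in the order the labels give. The other floxed gene, Trp53, was at 5.35 ± 1.02 CPM (SD, n = 6) in Ctrl, 13.9 ± 1.89 in ABpIF/+ and 10.7 ± 1.5 (n = 3) in ABpIF/F, so its count per gene did not fall where the BrafV600E allele was present. The 11 listed hepatocyte markers were all above 1 CPM in each group, with a summed level of 97535 to 126772 CPM in Ctrl, 153733 to 208177 in ABpIF/+ and 110251 to 198960 in ABpIF/F mice. Of these markers 2 were called higher in ABpIF/+ and 2 lower in ABpIF/F, where 4.69% and 2.38% of all genes were. Fewer cells of a type and less RNA per cell cannot be told apart in such tissue RNA.

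Among the Ctrl mice, BG3 and malpa387 stood apart from the other 4 in Ppara (212 and 173 CPM against 350 to 464) and in Esr1 (12.9 and 15.0 CPM against 52.6 to 92.3). Results that rest on these genes are therefore also given without both mice, a choice made after their values were seen. Of 16 listed clock genes, 3 were called higher in ABpIF/+ and 4 lower in ABpIF/F against Ctrl, where 4.69% and 2.38% of all genes were. A score of 15 circadian clock genes, high where the day-output genes Dbp, Per1 and Nr1d1 exceed Arntl and Clock, was −2.41 in malpa387, 0.47 to 1.34 in the other 5 Ctrl mice, 0.19 to 1.13 in ABpIF/+ mice and −1.03, −1.70 and −3.38 in the ABpIF/F mice BG183, BG38 and BG90. Time of sampling is not in the labels, and the score moved with the ABpIF/F genotype.

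Levels of different genes were compared per kilobase of exon, over the merged GENCODE exons of each gene. The annotation used for counting is not given, so the order is approximate. That of Nr1i3 is uncertain, since 3304 of its 4414 exon bases also lie in exons of Tomm40l. Rxra was the highest of the 10 receptors in Ctrl livers with 88.9 ± 13.0 CPM per kb (SD, n = 6). Ppara followed at 87.8 ± 30.9, within the spread of Rxra, and then Nr1h4 at 54.7 ± 4.07. Nr1h3 (37.1 ± 4.67), Nr1i2 (34.8 ± 2.55), Nr1i3 (29.7 ± 8.17) and Nr0b2 (24.1 ± 9.83) formed a middle range in which neighbours overlapped, and Ahr (9.29), Thrb (5.30) and Esr1 (3.66) were lowest. In ABpIF/+ livers the order was the same, with Rxra at 97.6 and Ppara at 57.8 CPM per kb. In ABpIF/F livers Ppara stood at 27.7 CPM per kb beside Nr1h4 at 31.8 and Nr1h3 at 26.1, and Nr1i3 at 9.55 was below Nr0b2 at 23.2.

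Set against Ctrl, the ABpIF/+ mice addressed what the BrafV600E allele changes with 1 floxed Icmt allele in place. Of the 10 receptors, 2 were called lower, Nr0b2 and Esr1, where called means an adjusted p under 0.01 (edgeR's quasi-likelihood test with Benjamini-Hochberg adjustment over all genes, the source of every adjusted p below) and at least a 2-fold change, and 5.35% of all genes were called lower in this comparison. At any fold change Nr1i2, Ahr and Nr1h3 passed too, which makes 5 of 10, where 9.16% of all genes passed. None of the 10 was called higher, against 4.69% of all genes. The median log2 fold change of the 10 was −0.51, and that of the 12316 genes averaging 1 CPM or more was 0.02.

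Set against Ctrl, the ABpIF/F mice showed 2 receptors called lower, Nr1i3 and Ppara, where 2.38% of all genes were called lower. Nr1i2, Ahr and Nr1h4 passed at any fold change, again 5 of 10, where 4.78% of all genes passed. None was called higher, against 4.55% of all genes, and the median log2 fold change was −0.83 with all 10 values negative. The direct comparison of ABpIF/+ with ABpIF/F mice, which differ in the second floxed Icmt allele, called Nr1i3 and Ppara higher in ABpIF/+, where 1.76% of all genes were called higher and 4.20% passed at any fold change. No receptor was called lower in ABpIF/+ than in ABpIF/F, against 5.49% of all genes. The 3 comparisons share mice, so their values are given side by side without a test of their likeness.

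**Figure D1:**
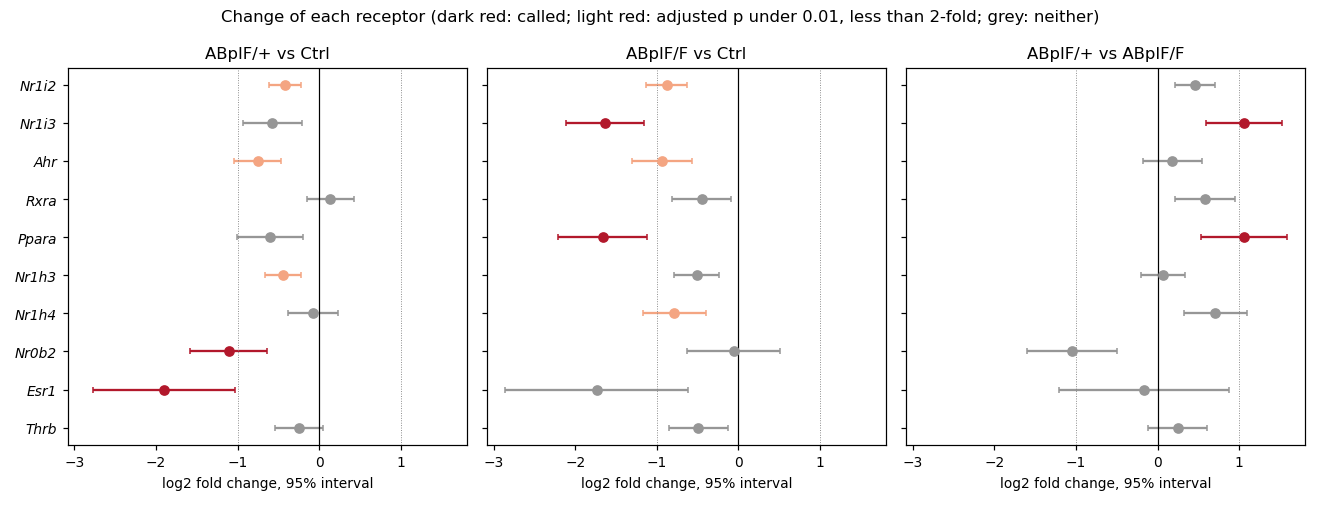
Log2 fold change of each of the 10 receptors with its 95% interval in ABpIF/+ against Ctrl, ABpIF/F against Ctrl and ABpIF/+ against ABpIF/F mice; dotted lines mark a 2-fold change. Nr0b2 and Esr1 were called in the first comparison and Nr1i3 and Ppara in the other 2.

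Nr1i2, which encodes the pregnane X receptor that senses drugs and steroids, was lower in both ABpIF groups. It was at 80.4 to 99.0 CPM in Ctrl with a median of 89.9, at 58.8 to 77.0 in ABpIF/+ with a median of 65.2, and at 50.2, 44.9 and 49.9 in the ABpIF/F mice BG183, BG38 and BG90. The 3 ranges did not overlap, and BG3 and malpa387 lay with the other Ctrl mice. The log2 fold change was −0.42 (SE 0.10, adjusted p = 0.00281) in ABpIF/+, with an adjusted p of 0.0117 without BG88, and −0.88 (SE 0.13, adjusted p = 3.31e-05) in ABpIF/F against Ctrl. Between the ABpIF groups it was 0.46 (SE 0.13, adjusted p = 0.0132), which missed the threshold.

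Nr1i3, which encodes the constitutive androstane receptor, the sensor of phenobarbital-like compounds, was lowest in ABpIF/F mice. Its level was 101.7 to 185.1 CPM in Ctrl with a median of 113, 62.1 to 118.4 in ABpIF/+ with a median of 94.0, and 46.1, 31.7 and 48.7 in the 3 ABpIF/F mice. The ABpIF/F values were below those of every other mouse, while Ctrl and ABpIF/+ overlapped. It fell by 1.64 on the log2 scale in ABpIF/F against Ctrl (SE 0.25, adjusted p = 6.53e-05), to 32.2% of the Ctrl mean. The difference of ABpIF/+ from ABpIF/F was 1.06 (SE 0.24, adjusted p = 0.00327) and that of ABpIF/+ from Ctrl −0.57 (SE 0.19, adjusted p = 0.026). With the clock score as a covariate the ABpIF/+ to ABpIF/F difference was 0.97 (adjusted p = 0.0828), without BG38 it was 0.89 (adjusted p = 0.0358) and without BG40 it was 0.96, so none of these was called.

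Of the 4414 exon bases of Nr1i3 in GENCODE, 3304 also lie in exons of Tomm40l on the other strand, a gene of the mitochondrial import family. Tomm40l was the gene of 12316 whose centred log2 CPM followed Nr1i3 most closely over the 15 mice, with a mean absolute difference of 0.17, at 200.1 CPM in Ctrl, 110 in ABpIF/+ and 50.8 in ABpIF/F. The libraries were stranded, but the strand setting of the counting is not given in the sources used here. The Nr1i3 values are therefore uncertain, since reads of the pair cannot be told apart if strand was not used. The next most alike were Pdk1, a mitochondrial kinase (0.20), and Akr1d1, a bile acid and steroid reductase (0.22).

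Ahr, the receptor for dioxin and tryptophan-derived ligands, was lower in both ABpIF groups. Its level was 45.0 to 74.1 CPM in Ctrl with a median of 56.6, 25.9 to 47.9 in ABpIF/+ with a median of 32.6, and 23.0, 33.4 and 33.4 in ABpIF/F mice. A single ABpIF/+ mouse, BG40, reached above the lowest Ctrl mouse, malpa387, and the ABpIF/F range lay below that of Ctrl. The log2 fold change was −0.76 (SE 0.15, adjusted p = 0.000454) in ABpIF/+ and −0.94 (SE 0.19, adjusted p = 0.00103) in ABpIF/F, both under 2-fold, and the latter was −0.78 without BG183 (adjusted p = 0.0109) and just past 2-fold, thus called, without BG38, BG90 or BG175. The ABpIF groups differed by 0.18 (95% interval −0.18 to 0.54, adjusted p = 0.672).

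**Figure D2:**
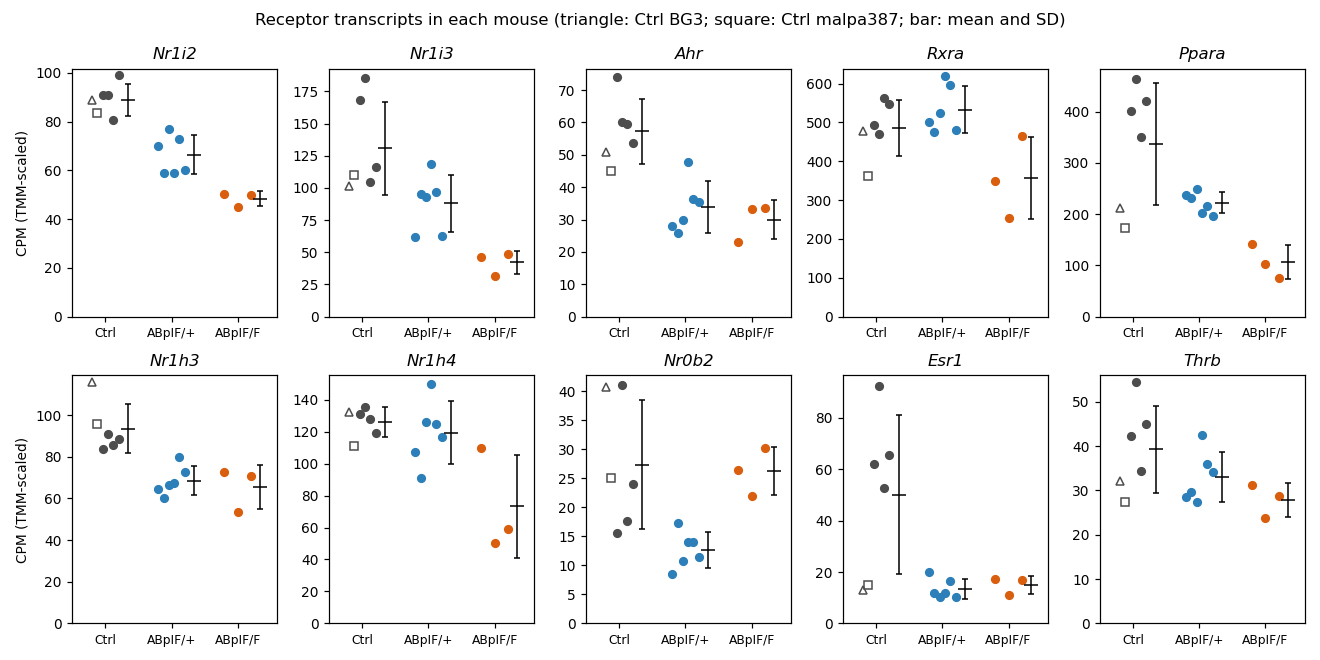
CPM of each of the 10 receptors in each mouse (points), with the mean and SD of each group beside them; triangles are the Ctrl mouse BG3 and squares malpa387. Nr1i2 steps down from Ctrl to ABpIF/+ to ABpIF/F without overlap, and Esr1 and Ppara split the Ctrl group.

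Rxra, the shared partner of PXR, CAR, PPARα, LXR, FXR and the thyroid hormone receptor, passed no threshold. Its level was 361.8 to 562.3 CPM in Ctrl with a median of 485.8, 474.7 to 620.2 in ABpIF/+ with a median of 513.6, and 349.0, 253.7 and 465.5 in ABpIF/F mice. All 3 ABpIF/F mice were below all ABpIF/+ mice, and BG90 lay within the Ctrl range. Log2 fold changes were 0.14 (adjusted p = 0.662) in ABpIF/+ and −0.45 (adjusted p = 0.11) in ABpIF/F against Ctrl, and 0.58 (SE 0.19, adjusted p = 0.0311) between the ABpIF groups.

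Ppara, the receptor that turns on fatty acid oxidation and ketone production, was lowest in ABpIF/F mice. It was at 173.2 to 464.2 CPM in Ctrl with a median of 375.9, 195.8 to 249.2 in ABpIF/+ with a median of 223.4, and 142.5, 101.7 and 75.0 in BG183, BG38 and BG90. The ABpIF/F mice were below all others, BG3 lay within the ABpIF/+ range, malpa387 below it and the other 4 Ctrl mice above it. It fell by 1.66 on the log2 scale in ABpIF/F against Ctrl (SE 0.28, adjusted p = 0.000209), and by 1.94 without BG3 and malpa387. The difference of ABpIF/+ from Ctrl was −0.60 (SE 0.21, adjusted p = 0.0389), −0.88 without both mice and 0.07 against BG3 alone.

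Between the ABpIF groups Ppara differed by 1.06 (SE 0.27, adjusted p = 0.00811), a call made in 5 of the 15 fits that left out 1 mouse and lost without BG30, BG31, BG38, BG40, BG55, BG88, BG90, BG175, malpa454 or malpa459 (adjusted p up to 0.0588). With the clock score as a covariate this difference was 0.33 (adjusted p = 0.593) and the fall against Ctrl 0.93 on the log2 scale (adjusted p = 0.0306), so neither was called. BG90 had the lowest clock score and the lowest Ppara level of all mice. The Ctrl mouse malpa387, with the next lowest score (−2.41), had the lowest Ppara level in Ctrl (173.2 CPM), above those of BG38 and BG183. The part of sampling time in the difference was not tested. The genes most like Ppara over the 15 mice were Nmrk1, a kinase of NAD synthesis (mean absolute difference of centred log2 CPM 0.12), Fhad1 (0.19) and the growth factor Fgf1 (0.19).

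Nr1h3, the oxysterol receptor LXRα, was lower in both ABpIF groups by less than 2-fold. It was at 83.9 to 115.9 CPM in Ctrl with a median of 89.7, 60.1 to 80.0 in ABpIF/+ with a median of 66.8, and 72.7, 53.3 and 70.7 in ABpIF/F mice. Every ABpIF mouse was below every Ctrl mouse, and the highest value was that of BG3. The log2 fold change was −0.45 (SE 0.11, adjusted p = 0.00419) in ABpIF/+, with an adjusted p of 0.014 without BG30, 0.0111 without BG31 and 0.0107 without BG175, and −0.51 (SE 0.14, adjusted p = 0.013) in ABpIF/F, which missed the threshold. The ABpIF groups differed by 0.06 (95% interval −0.21 to 0.33).

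Nr1h4, the bile acid receptor FXR, passed the threshold at any fold change in ABpIF/F mice. It was at 110.7 to 135.4 CPM in Ctrl with a median of 129.4, 91.1 to 149.7 in ABpIF/+ with a median of 120.7, and 109.9, 50.5 and 59.0 in ABpIF/F mice. BG38 and BG90 had less than the lowest other mouse, while BG183 was just under the Ctrl range. The log2 fold change in ABpIF/F against Ctrl was −0.78 (SE 0.20, adjusted p = 0.00649), and it was −1.20 without BG183 (called), −0.58 without BG38 (adjusted p = 0.0772) and −0.65 without BG90 (adjusted p = 0.0602). Leaving out BG3, BG88, malpa454, malpa458 or malpa459 gave an adjusted p of 0.0104 to 0.0131. In ABpIF/+ it was −0.08 (95% interval −0.38 to 0.23). Between the ABpIF groups the difference missed the threshold with all mice fitted. Over the fits that left out 1 mouse it ranged from 0.50 (without BG38) to 1.12 (without BG183), higher in ABpIF/+. The adjusted p over those fits ranged from 0.000118 to 0.128.

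Nr0b2, the atypical receptor SHP that restrains bile acid synthesis, was lowest in ABpIF/+ mice. It was at 15.5 to 41.1 CPM in Ctrl with a median of 24.5, 8.51 to 17.3 in ABpIF/+ with a median of 12.7, and 26.4, 22.0 and 30.3 in ABpIF/F mice. The ABpIF/+ and ABpIF/F ranges did not overlap, whereas BG30 of the ABpIF/+ group exceeded the lowest Ctrl mouse. It fell by 1.11 on the log2 scale in ABpIF/+ against Ctrl (SE 0.24, adjusted p = 0.00221), by 0.96 without BG3 and malpa387, by 0.96 without BG3 alone and by 0.96 without malpa458, none of which was called. In ABpIF/F the difference from Ctrl was −0.06 (95% interval −0.63 to 0.51), and ABpIF/+ differed from ABpIF/F by −1.05 (SE 0.28, adjusted p = 0.0155), which missed the threshold. The difference between the ABpIF groups was called with DESeq2, with filterByExpr, without robust estimation, with the ABpIF groups fitted alone, and without BG30, malpa454 or malpa458. Rnf186 and Cited2 (both 0.26) and Bcl3 (0.29) were the genes most like it over the 15 mice.

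**Figure D3:**
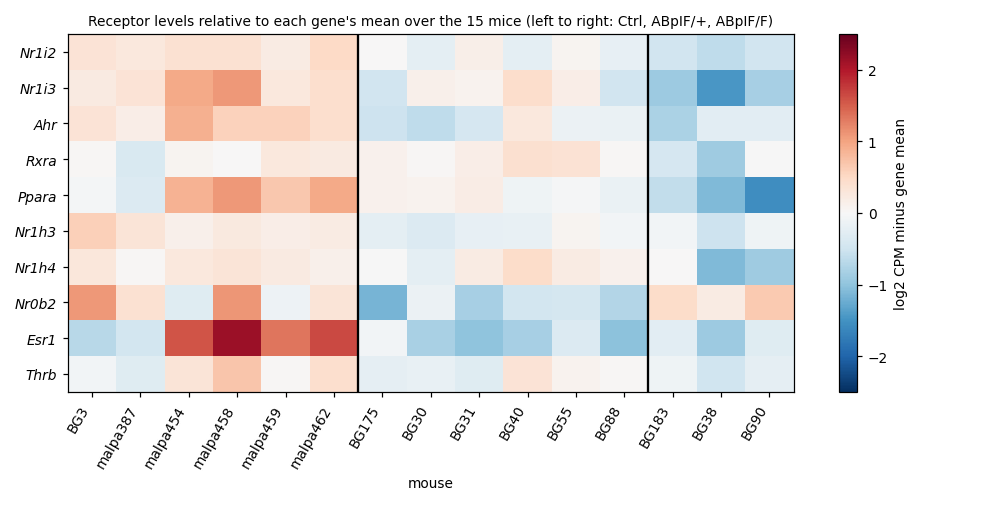
Log2 CPM of the 10 receptors (rows) in each mouse (columns) minus the mean of the gene over the 15 mice, red above and blue below. The Ctrl mice malpa454, malpa458, malpa459 and malpa462 are red for Ppara and Esr1, BG3 and malpa387 are not, and Nr0b2 is blue across the ABpIF/+ mice.

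Esr1, the estrogen receptor α, was the most variable receptor in Ctrl livers. It was at 12.9 to 92.3 CPM in Ctrl with a median of 57.4, 10.1 to 19.9 in ABpIF/+ with a median of 11.8, and 17.4, 11.0 and 16.8 in ABpIF/F mice. BG3 and malpa387 lay within the ABpIF/+ range and the other 4 Ctrl mice far above it. The log2 fold change of ABpIF/+ against Ctrl was −1.90 (SE 0.45, adjusted p = 0.00589), −2.35 without BG3 and malpa387, and 0.05 against BG3 alone, the Ctrl mouse with the strain label of the ABpIF mice. The call was made in 6 of the 15 fits that left out 1 mouse, was lost without BG30, BG31, BG40, BG55, BG88, malpa454, malpa458, malpa459 or malpa462, and the adjusted p ranged from 0.00103 to 0.0167. In ABpIF/F it was −1.74 (SE 0.57, adjusted p = 0.0565), −2.18 without both mice (called) and 0.19 against BG3 alone. Slc10a5 (0.30), Snx29 (0.37) and N4bp2 (0.40) were the genes most like it. These differences exceeded those given for Nr1i3, Ppara and Nr0b2, but the measure is not scaled to the spread of a gene.

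Thrb, the thyroid hormone receptor β of liver, passed no threshold. It was at 27.5 to 54.4 CPM in Ctrl with a median of 38.3, 27.4 to 42.4 in ABpIF/+ with a median of 32, and 31.2, 23.7 and 28.8 in ABpIF/F mice. All ranges overlapped. The log2 fold changes against Ctrl were −0.25 (adjusted p = 0.27) and −0.49 (adjusted p = 0.0734).

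Transcripts that these receptors are known to control were counted from lists of textbook targets, with no test of a list. Of all genes, 4.69% were called higher and 5.35% lower in ABpIF/+ against Ctrl, and 4.55% and 2.38% in ABpIF/F. These shares apply beside the counts of each list below. Of 20 PXR and CAR targets, 0 were called higher and 7 lower in ABpIF/+, with a median log2 fold change of −0.87, and 0 higher and 9 lower in ABpIF/F, with a median of −0.98. Cyp3a11, the main drug-oxidizing P450 of the list, had a mean of 3035 CPM in Ctrl, 942 in ABpIF/+ and 1068 in ABpIF/F (log2 fold changes −1.69 and −1.51). Cyp2b10, the classical CAR target, was at 19.2 ± 18.8 CPM in Ctrl and 0.999 ± 0.685 in ABpIF/+ (log2 fold change −4.26, adjusted p = 0.00166), while Cyp2c54 fell by 1.95 and 2.59 on the log2 scale in ABpIF/+ and ABpIF/F. Alas1, the first enzyme of heme synthesis, Por, the electron donor of the P450 enzymes, and Cyp2a5 were higher in ABpIF/+ than in ABpIF/F by 3.15, 2.72 and 2.54 on the log2 scale, and all 3 fell in ABpIF/F against Ctrl.

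In each mouse the summed level of the 20 targets was 9975 to 12798 CPM in Ctrl, 5325 to 8403 in ABpIF/+ and 5402, 3044 and 3866 in ABpIF/F mice. No ABpIF mouse reached the Ctrl range of the sum. Nr1i2 was likewise apart from Ctrl, whereas Nr1i3 overlapped between Ctrl and ABpIF/+. The sums of the ABpIF groups overlapped each other, and their Nr1i2 levels did not. A link of receptor and target levels was not tested. Pericentral hepatocytes hold much of this P450 expression, and 9 of 10 pericentral markers were called lower in ABpIF/+ and 7 of 10 in ABpIF/F (medians −1.84 and −2.18). Their summed level was 9560 to 13390 CPM in Ctrl, 2649 to 5693 in ABpIF/+ and 993 to 2734 in ABpIF/F mice, none of the 10 was at 0, and their part in the target results was not tested.

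Of 30 PPARα targets, 1 was called higher and 16 lower in each ABpIF group against Ctrl, with medians of −1.15 in ABpIF/+ and −1.22 in ABpIF/F. Fabp1, the liver fatty acid binding protein, was at 3434 CPM in Ctrl, 388 ± 105 in ABpIF/+ and 857 ± 627 in ABpIF/F (log2 fold changes −3.15 and −2.0). The peroxisomal thiolase Acaa1b fell by 3.29 and 3.83 on the log2 scale. Cyp4a10 and Cyp4a14, the fatty acid hydroxylases most used as readouts of PPARα, fell by 4.28 and 3.83 in ABpIF/F, and Cyp4a10 was higher in ABpIF/+ than in ABpIF/F by 2.71 (adjusted p = 0.00264). Cyp4a31 went the other way, rising by 2.65 in ABpIF/+ and 1.67 in ABpIF/F, and as a close copy of other Cyp4a genes its counts are uncertain.

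The summed PPARα target level did not follow Ppara within the Ctrl group. BG3, with 212 CPM of Ppara, had the highest summed target level of all 15 mice, 18219 CPM, and malpa387, with 173 CPM of Ppara, the next at 14697. The other 4 Ctrl mice were at 12346 to 14271 CPM, the ABpIF/+ mice at 4285 to 5854 and the ABpIF/F mice at 6424, 3526 and 4169. ABpIF/+ mice thus had a Ppara level like that of BG3 and at most 5854 CPM of target transcripts.

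**Figure D4:**
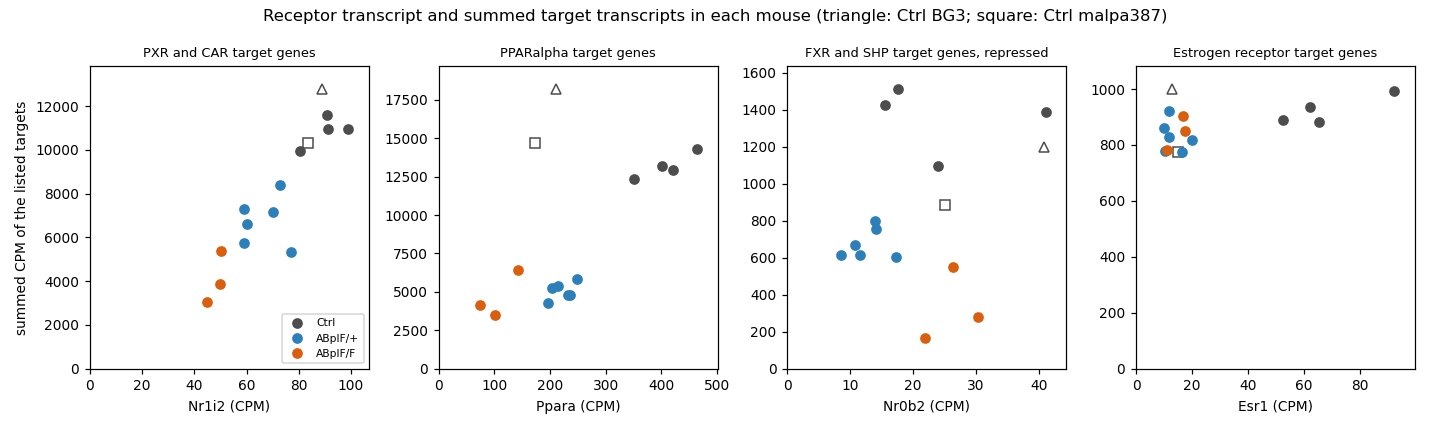
Receptor CPM (horizontal) against the summed CPM of its listed targets (vertical) in each mouse, for Nr1i2, Ppara, Nr0b2 and Esr1. BG3 (triangle) and malpa387 (square) have Ppara and Esr1 levels near those of ABpIF mice and target sums within or above the range of the other Ctrl mice, except malpa387 for the estrogen receptor list at 774 CPM.

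Of 10 AHR targets, 0 were called higher and 2 lower in ABpIF/+ and 0 higher and 3 lower in ABpIF/F, and 4 of the 10 were under 1 CPM. Cyp1a2, the AHR-inducible P450 that oxidizes caffeine, was at 648 ± 76.1 CPM in Ctrl, 68.3 ± 13.3 in ABpIF/+ and 117 ± 39.2 in ABpIF/F (log2 fold changes −3.25 and −2.47, adjusted p = 7.55e-12 and 5.06e-08). Ugt1a6a fell by 1.38 in ABpIF/+.

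Of 12 LXR targets, 1 was called higher and 4 lower in each ABpIF group. The cholesterol transporters Abca1, Abcg5 and Abcg8, named here after their values were seen, were not called in any comparison, while Abcg1 was lower in ABpIF/+ than in ABpIF/F (−1.08, adjusted p = 0.0053). The lipogenic Scd1 (log2 fold changes −1.83 and −1.76) and the phospholipid transfer protein Pltp (−2.87 and −2.0) fell in both ABpIF groups. Lpl, the lipoprotein lipase that adult hepatocytes hardly express, rose from 13.1 ± 3.57 CPM in Ctrl to 441 ± 29.2 in ABpIF/+ and 355 ± 166 in ABpIF/F (log2 fold changes 5.07 and 4.76).

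Of the 4 genes that FXR and SHP repress, 0 were called higher and 3 lower in ABpIF/+ and 0 higher and 4 lower in ABpIF/F. Cyp8b1, which makes cholic acid, was at 163 ± 56.3 CPM in Ctrl, 2.6 ± 1.56 in ABpIF/+ and 9.61 ± 8.59 in ABpIF/F (log2 fold changes −5.96 and −4.08). Cyp7a1, the rate-limiting enzyme of bile acid synthesis and also an LXR target, was at 294 ± 179, 47.6 ± 22.5 and 8.62 ± 9.02 CPM, and Cyp7b1 fell by 2.74 and 2.47. Slc10a1, the bile acid uptake carrier, did not pass in ABpIF/+ (−0.29) and fell by 1.30 in ABpIF/F.

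Of 11 genes that FXR induces, 1 was called higher and 2 lower in ABpIF/+, and 1 higher and 4 lower in ABpIF/F. Abcb11, the bile salt export pump, was at 781 ± 150 CPM in Ctrl, 111 ± 26.6 in ABpIF/+ and 336 ± 141 in ABpIF/F (log2 fold changes −2.81 and −1.22), and it was lower in ABpIF/+ than in ABpIF/F by 1.59 (adjusted p = 3.49e-05). Among the FXR-induced genes it was the 1 called between the ABpIF groups, where the median log2 fold change of the list was 0.01. Nr0b2, itself an FXR target, was not called there. Abcb4 fell by 1.29 and 1.33, and Apoc2 rose by 2.13 and 2.04.

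Of 8 thyroid hormone receptor targets, 0 were called higher and 3 lower in ABpIF/+ and 1 higher and 3 lower in ABpIF/F, although Thrb itself passed no threshold. Dio1, which activates thyroid hormone, was at 174 ± 43.1 CPM in Ctrl and 24.3 ± 11.1 in ABpIF/+ (log2 fold change −2.84, adjusted p = 0.00155). Me1, malic enzyme (log2 fold changes −3.85 and −4.10), and Thrsp, a lipogenic protein (−2.72 and −5.03), fell in both ABpIF groups. Of 7 estrogen receptor targets, 1 was called lower in ABpIF/+, Cxcl12 (−1.06), and 0 in ABpIF/F, and their summed level was 774 to 1001 CPM in Ctrl, 775 to 922 in ABpIF/+ and 783 to 905 in ABpIF/F mice, with overlap of all groups.

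**Figure D5:**
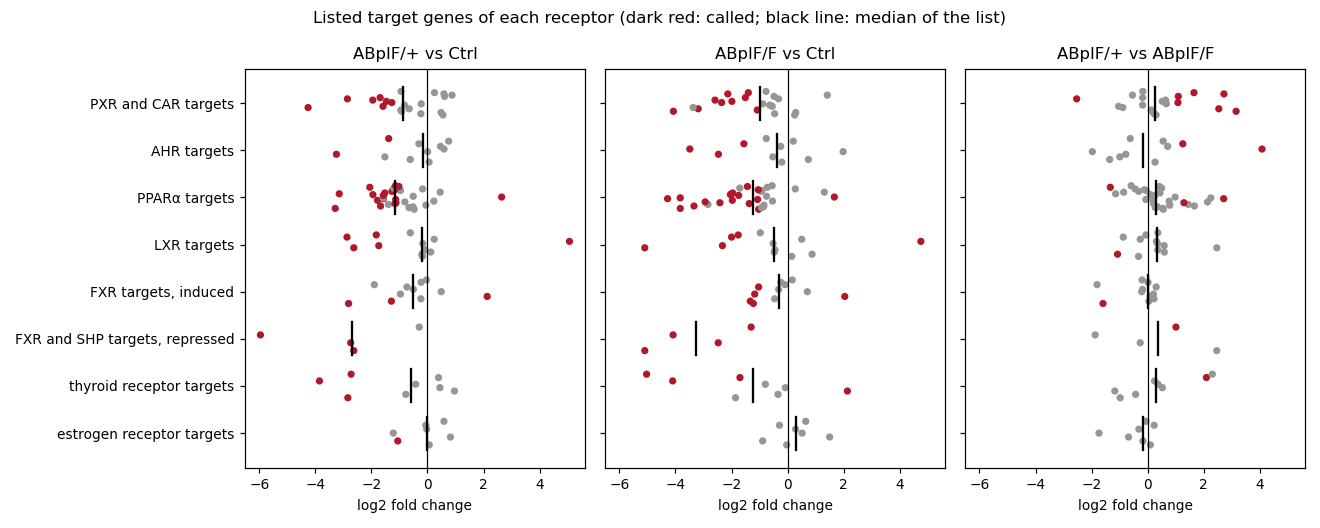
Log2 fold change of each listed target gene in the 3 comparisons, dark red where called, with the median of each list as a black line. The PXR and CAR, PPARα and bile acid synthesis lists lie mostly left of 0 against Ctrl, and the estrogen receptor list lies around 0.

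Of 23 partners and coregulators, 1 was called higher and 2 lower in ABpIF/+, where 4.69% and 5.35% of all genes were. In ABpIF/F 0 were called either way, against 4.55% of all genes higher and 2.38% lower. Ppargc1a, the coactivator of PPARα in fasting, rose in ABpIF/+ from 13.3 to 35.9 CPM (log2 fold change 1.43, adjusted p = 1.23e-05), Hsp90aa1, a chaperone of AHR and the steroid receptors, fell by 1.55, and Rxrg fell by 1.27. Rxrg was at 6.50 CPM in Ctrl and 2.70 in ABpIF/+. The more abundant Rxrb rose from 31.0 to 48.3 CPM (log2 fold change 0.64, adjusted p = 0.000442), under 2-fold. Arnt, the partner of AHR, was not called in any comparison. Of 40 other nuclear receptors, 27 with a mean of at least 1 CPM, 3 were called higher and 4 lower in each ABpIF group, beside the shares of all genes given above. Their median log2 fold changes were −0.19 and −0.01, beside −0.51 and −0.83 for the 10 members. Nr4a1, an immediate-early receptor, rose from 2.77 to 92.0 CPM in ABpIF/+ (log2 fold change 5.06), and Hnf4a, the most abundant of this list, was at 595, 848 and 513 CPM in Ctrl, ABpIF/+ and ABpIF/F without a call, although its 0.51 in ABpIF/+ had an adjusted p of 0.00789.

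Markers of other liver cells moved with the groups too. Of 7 cholangiocyte markers, 5 were called higher in ABpIF/F against Ctrl, with a summed level of 49.4 to 87.9 CPM in Ctrl, 54.7 to 176 in ABpIF/+ and 236 to 1195 in ABpIF/F mice. Of 10 macrophage markers, 6 were called lower in ABpIF/+ and 0 either way in ABpIF/F, with sums of 404 to 558, 167 to 292 and 340.5 to 833 CPM. Called lower in ABpIF/+ and higher in ABpIF/F were 2 and 1 of 7 endothelial, 6 and 1 of 8 stellate cell and 3 and 1 of 8 lymphocyte markers. No marker of these lists was at 0 in every mouse of a group, and their part in the receptor levels was not tested.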

How the data were processed

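Total RNA from the liver of 15 mice was made into stranded mRNA libraries and sequenced by the authors. Per the submitters' processing notes the reads were aligned with HISAT2 2.21 to mm10 and counted with featureCounts 2.0.8; the annotation and strand setting are not given in the sources used here. The deposited values are raw counts per gene, 24742910 to 32262649 per mouse, which limits precision by counting error only. The tables hold 1 column per mouse although 8 mice are named by 2 samples each, and both tables hold the same counts; columns of fold changes and p-values of the authors' own comparisons were not used. Columns were assigned to mice and groups by the mouse names, and replicates are separate mice.

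The counts entered edgeR 4.0.16 under R 4.3.3, with TMM scaling, robust dispersions and 1 quasi-likelihood fit with 3 groups, without a filter, and Benjamini-Hochberg adjustment over 27179 genes. Called means past an adjusted p of 0.01 with 2-fold or more. CPM are TMM-scaled and log2 CPM used a prior count of 2; intervals of log2 fold changes are 1.96 SE. Named in the text are the members, up to 3 called genes per list, comparison and direction with the largest change, the most abundant gene of each list, the 3 genes most like each called member, by mean absolute difference of centred log2 CPM, and the deleted genes; other named genes were chosen after their values were seen. The members and lists were chosen with earlier results of these data known. Alternatives were RLE size factors, DESeq2 1.42.0, filterByExpr, the edgeR 4 quasi-likelihood form, no robust estimation, other thresholds, fits of the compared groups only, the other deposited table, each mouse left out, a clock score as a covariate and BG3 as the only Ctrl mouse; leaving out BG3 and malpa387 was chosen after seeing the data. The fit was tested on simulated data. Positions are from RefSeq and promoters from RefSeq on GRCm38.p6. Strands, exon lengths and exon overlaps are from GENCODE M21 on GRCm38. Ahr has no promoter entry here, and protein sequences were not used here. Some genes of the lists are not reported here by name.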

Additional observations from a re-analysis of the deposited data

Results flagged for a closer look

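The Ctrl mouse BG3 had an Nr1h3 level of 115.9 CPM, apart from the next highest Ctrl mouse at 95.6 CPM; 20 groups of 6 mice were examined in this way, and chance flags about 1 in 20. Without BG3 the log2 fold change of Nr1h3 in ABpIF/+ against Ctrl was −0.38. The changes of Nr1i3 and Ppara from Ctrl differed between the ABpIF groups by 1.06 each on the log2 scale in the direct comparison of ABpIF/+ with ABpIF/F mice, with adjusted p of 0.00327 and 0.00811 (edgeR).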

How the results depend on the processing

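No paired analysis was possible because the columns carry mouse names and no replicate numbers. The counts of called receptors, 2 in each comparison, fell to 0 in all 3 at a 4-fold threshold and rose to 5 in both comparisons with Ctrl at any fold change. In ABpIF/+ against Ctrl the count was 1 with only the compared groups fitted, 1 against BG3 alone and 1 without BG3 and malpa387, and 0 (without malpa458) to 2 over the fits leaving out 1 mouse. In ABpIF/F against Ctrl it was 1 with the clock score, 0 against BG3 alone, 4 without BG3 and malpa387 and 2 to 3 over those fits. Between the ABpIF groups it was 0 with the clock score, and 0 (without BG38 or without BG40) to 3 over those fits. Log2 fold changes that changed sign were, with the clock score, Ahr −0.0090 and Thrb −0.052 between the ABpIF groups; against BG3 alone, Ppara 0.066, Esr1 0.054 and Thrb 0.044 in ABpIF/+ and Esr1 0.19 in ABpIF/F; and without BG3 and malpa387, Nr0b2 0.093 in ABpIF/F. Leaving out 1 mouse, Nr0b2 ranged from −0.18 to 0.094 in ABpIF/F and Nr1h3 from −0.067 to 0.14 between the ABpIF groups. Against BG3 alone the Ctrl group is 1 mouse assumed to vary like the other groups, so calls made or lost there say nothing about stability. The changed signs of Esr1 and Ppara against BG3, the Ctrl mouse with the strain label of the ABpIF mice, remain a limit on those results. The cause of the sign changes was not tested. DESeq2, RLE size factors and filterByExpr gave 2 or 3 calls in each comparison. The other deposited table holds the same counts, so its fit could not differ and says nothing about stability.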
